A study of Mus musculus with 24 samples.

Results

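Control mouse bone marrow macrophages kept with RANKL were compared between day 5 and day 3, in 6 of the 24 libraries of the series (3 per day). The libraries were chosen by their labels, as all those of control genotype and RANKL medium, and every gene that passed a filter on low counts was tested (15035 of 54532). The titles give the control genotype as Rosa26-Runx1tg, the design text as Rosa26-Runx1tg/+, and the genotype label as wild type control. These cells therefore carry a Runx1 transgene at the Rosa26 locus too, but without the LysM-Cre that is meant to switch it on. Both days had the same medium, with M-CSF at 30 ng/mL and RANKL at 50 ng/mL. Cells were expanded from flushed long bones, seeded at 15000 per well and differentiated in culture, and libraries were made with a TruSeq kit from 250 ng of RNA each. The age and sex of the mice, and whether the numbers 1 to 3 in the titles stand for animals, cultures or wells, are not stated by the labels. The p-values come from a fit to all 24 libraries. They therefore measure only the spread between libraries within the groups of the whole series, which may be technical. The 2 sets used beside it were the same control cells in M-CSF alone at days 3 and 5 (6 libraries) and LysM-Cre;Rosa26-Runx1tg cells with RANKL at days 3 and 5 (6 libraries), in which Cre is driven from the lysozyme 2 gene of myeloid cells.

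Osteoclasts are the multinucleated cells that resorb bone. M-CSF keeps their macrophage precursors alive and dividing, and RANKL, acting through its receptor RANK, induces the transcription factor Nfatc1, after which the precursors leave the cell cycle, fuse, and make the proton pump, the proteases and the actin ring used for resorption. The formation of an osteoclast is also known for a high demand for mitochondrial respiration.

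Library totals, in 1e6 counts, were 19.8 to 23.9 at day 3 and 21.4 to 22.3 at day 5, so that 1 read was worth 0.0422 to 0.0516 counts per 1e6 counts (CPM). Mitochondrially encoded genes took 3.15 to 3.94% of the counts at day 3 and 3.22 to 3.62% at day 5. The day 3 libraries differed more among themselves than the day 5 libraries: the median SD of log2 CPM was 0.202 at day 3 and 0.108 at day 5, and 10356 genes (68.9%) had the larger SD at day 3. The first principal component (56.1% of the variance) separated the days, and the second (14.8%) spread the day 3 libraries from 35 (number 1) to −35.7 (number 3). The osteoclast label was borne out at both days by the protease gene Ctsk, at 8232 to 11940 CPM, the acid phosphatase gene Acp5, at 5547 to 8668 CPM, and the gelatinase gene Mmp9, at 18720 to 26360 CPM. In bulk RNA, fewer cells of a type and less RNA per cell cannot be told apart.

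Between day 3 and day 5, 4027 of the 15035 genes (26.8%) passed edgeR's quasi-likelihood test at a Benjamini-Hochberg adjusted p under 0.05. Of these, 2114 rose (14.1%) and 1913 fell (12.7%). With DESeq2's size factors more genes fell than rose, 2342 against 1759 in edgeR (42.9% of the calls higher, against 52.5%) and 2603 against 1942 in DESeq2. Over 2-fold, 597 genes rose (3.97%) and 528 fell (3.51%), and over 4-fold 110 rose and 160 fell. The median log2 fold change (day 5 minus day 3) of all genes tested was 0, and the shares of 14.1% and 12.7% are the background for the counts of each gene list. Without day 3 library 1, day 3 library 2 or day 5 library 1, the counts were 1317 higher and 1304 lower, 1278 and 1349, and 1460 and 1154. The plot of log2 fold change against mean level shows the spread of these calls.

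**Figure D1:**
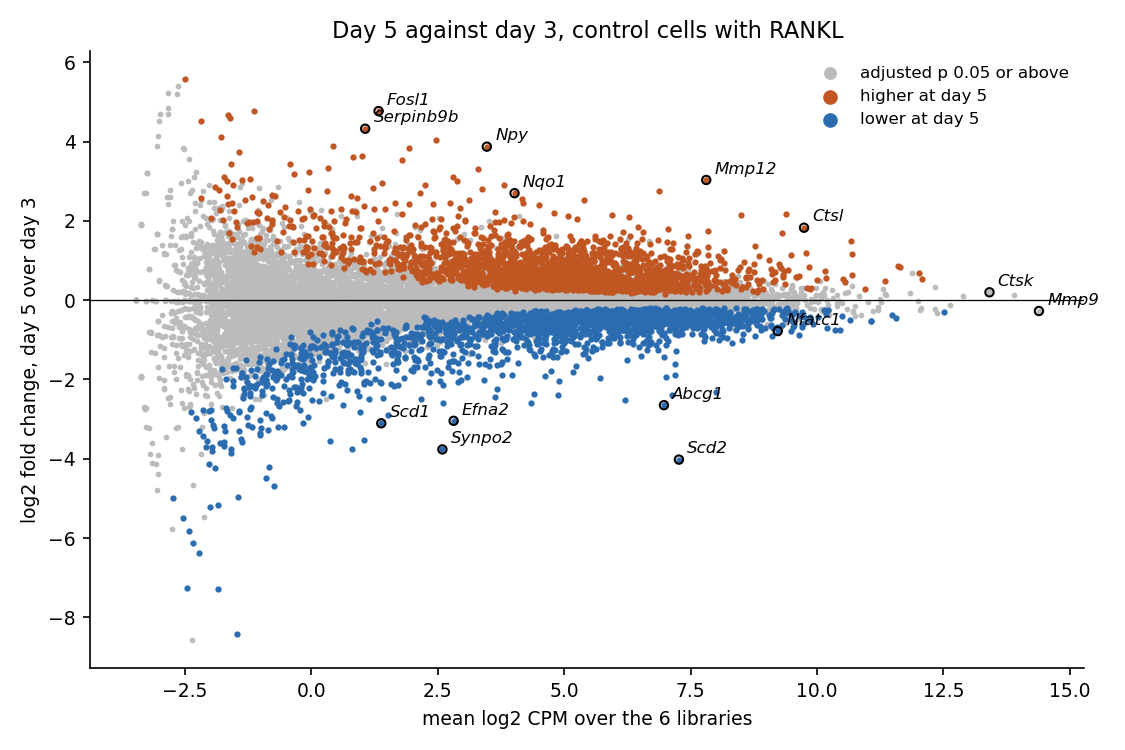
Log2 fold change from day 3 to day 5 (y axis) against mean log2 CPM over the 6 control RANKL libraries (x axis) for each of the 15035 genes tested. Coloured points are the 2114 genes called higher and the 1913 called lower, and the labelled genes are described in the text.

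Npy, which encodes neuropeptide Y, a peptide best known from neurons, stood at 2.53, 2.48 and 3.59 CPM in the 3 day 3 libraries and at 40.4, 42.4 and 43.2 CPM at day 5. Every day 5 value lay far above every day 3 value, with little spread within either day. The rise was 14.6-fold, or 3.87 on the log2 scale (SE 0.22, adjusted p = 8.82e-10). Npy lies on chromosome 6, from 49822710 to 49829507 on the plus strand. A list of the neuropeptide Y system, drawn up around Npy, had 6 tested members, with a median log2 fold change of 0.46. Of these 3 rose, Npy among them, and 0 fell, against 14.1% and 12.7% of all genes. Besides Npy these were Pam, the enzyme that amidates peptide hormones (80.8 to 86.6 CPM at day 3, 128 to 140 at day 5, log2 0.69), and Pcsk1, a prohormone convertase (0.103 to 0.479 CPM against 0.771 to 1.4, log2 2.03), whose call was lost without day 3 library 1, day 3 library 2 or day 5 library 1. The receptor genes Npy1r, Npy2r, Npy4r, Npy5r and Npy6r had 0 counts in all 6 libraries. In M-CSF alone 3 of the 6 tested members also rose and 0 fell, with a median of 0.77, against 12.2% and 11.5% of all genes. The difference between media passed the test upward for 1 of the 6, against 7.26% of all genes.

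Fosl1, which encodes the AP-1 subunit Fra-1, had 0.0844, 0.465 and 0.958 CPM at day 3 and 15.2, 14.5 and 10.9 CPM at day 5. The groups were far apart, but the day 3 values are close to a handful of reads and differ among themselves. The fitted rise was 4.77 on the log2 scale (27.3-fold, SE 0.60, adjusted p = 1.6e-05), from 4.21 without day 3 library 1 to 5.68 without day 3 library 3. Scd2, a stearoyl-CoA desaturase that makes monounsaturated fatty acids, went the other way. It had 560, 695 and 612 CPM at day 3 and 39.8, 39.8 and 35.5 CPM at day 5, a fall to a narrow, low range in every day 5 library. The fold was 16.2 (log2 −4.02, SE 0.48, adjusted p = 1.07e-05). Both genes lie on chromosome 19, Fosl1 from 5447703 to 5455945 and Scd2 from 44293676 to 44306864.

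**Figure D2:**
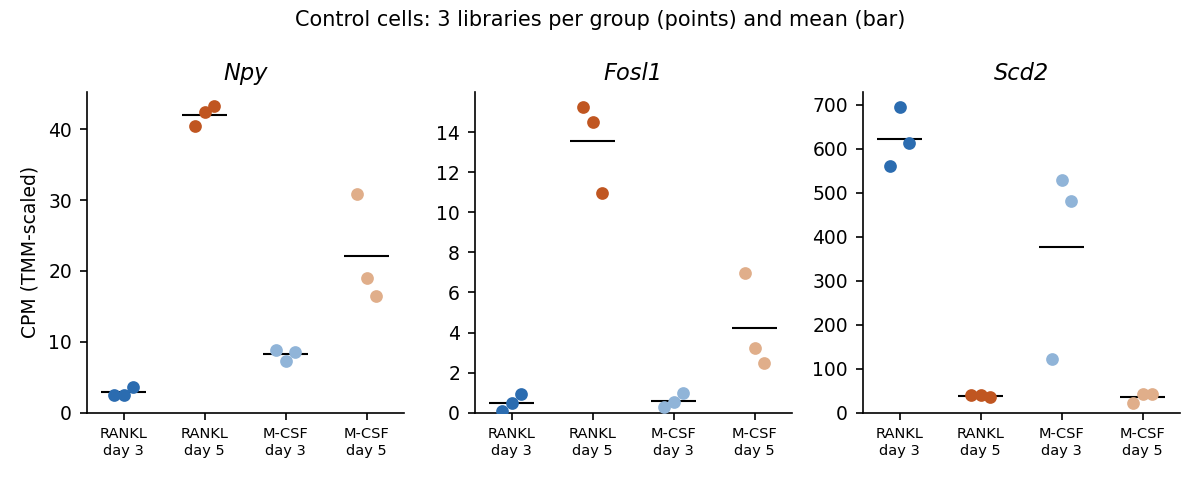
CPM of Npy, Fosl1 and Scd2 (y axes) in each control library, with RANKL at days 3 and 5 and in M-CSF alone at days 3 and 5 (x axis). Points are libraries and bars are group means; with RANKL, the 3 libraries of each day do not overlap for any of the 3 genes.

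In M-CSF alone Npy also rose, from 8.81, 7.27 and 8.59 CPM to 30.9, 19 and 16.4 CPM. Its log2 change there was 1.43, and the change with RANKL was larger by 2.44 (adjusted p of the difference = 2.86e-06). In these libraries every Npy value at day 3 was lower with RANKL than without it, and every value at day 5 was higher. For Fosl1 (log2 2.78 in M-CSF alone) and Scd2 (log2 −3.42) the difference between media did not pass the test, at 1.99 (adjusted p = 0.132) and −0.60 (adjusted p = 0.589).

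Other genes with large rises had varied roles. Mmp12, the macrophage elastase, had 47.5, 76.6 and 119.5 CPM at day 3 and 647, 660 and 684 CPM at day 5, with no overlap and a rise of 3.03 on the log2 scale (adjusted p = 8.86e-05). Serpinb9b, a serine protease inhibitor gene of a family with close copies, had 0.338, 0.258 and 0.719 CPM and then 10.9, 7.11 and 8.67 CPM (log2 4.32, adjusted p = 3.37e-05). Ctgf, which encodes a matrix protein, had 0.844, 0.413 and 0.383 CPM and then 8.86, 8.23 and 3.81 CPM (log2 3.63, adjusted p = 0.00695). Its days did not overlap, and library 3 was the lowest of both days, which was also so for several genes of the stromal list described further on. Rgs1 (log2 3.84), a regulator of G protein signalling, Ak4 (3.53), an adenylate kinase of mitochondria, Olfml3 (3.10) and the chemokine gene Cxcl14 (3.00) rose as well. Nptx1 (log2 3.30) was no longer called without day 3 library 1, and Nes (2.95, adjusted p = 0.0328), the intermediate filament nestin, was not called once any of the 6 libraries was left out.

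Among the large falls were lipid genes and receptors. Abcg1, a cholesterol exporter, had 375, 317 and 256 CPM at day 3 and 50.1, 49.3 and 52 CPM at day 5 (log2 −2.65, adjusted p = 5.17e-05). Scd1, the paralogue of Scd2, was at 7.97, 6.97 and 7.04 CPM and then at 0.652, 0.753 and 1.13 CPM (log2 −3.10, adjusted p = 3.34e-05). Efna2, an ephrin ligand, had 30, 17.6 and 13.5 CPM and then 2.66, 2.16 and 2.59 CPM (log2 −3.04, adjusted p = 3.4e-07). In all 3 genes every day 5 value lay below every day 3 value. The actin-associated gene Synpo2 fell by 3.76 on the log2 scale, the chemokine receptor Cxcr4 by 2.58, the cadherin Celsr1 by 2.58, the p53-inducible gene Trp53inp1 by 2.52, the purinergic receptor P2ry12 by 2.50, the repressor Bach2 by 2.49 and the transporter Slc6a12 by 2.43. The adhesion receptor Adgre4 (log2 −2.48) lost its call in 4 of the 6 fits that left a library out.

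Genes of mitosis rose together with RANKL. All 32 tested members of a list of kinesins, kinetochore proteins, mitotic kinases and cyclins passed the test upward, and in all 32 the days did not overlap, against 14.1% of all genes called higher and 49.8% of all genes without overlap. Their median log2 fold change was 1.20, from 0.57 (Ccnb2) to 1.55 (Anln), and 31 to 32 stayed called when 1 library was left out. Cenpf, a kinetochore protein, had 31.9, 30.9 and 42.7 CPM at day 3 and 110, 91 and 85.2 CPM at day 5 (log2 1.44). Mki67, the proliferation marker Ki-67, had 223, 245 and 354 CPM and then 593, 535 and 479 CPM (log2 0.97, SE 0.23, adjusted p = 0.00444). Ccnb2, a B-type cyclin, had 32.3, 36.8 and 48.1 CPM and then 56, 59.1 and 58.5 CPM, the smallest rise of the list. In each of these genes day 3 library 3 was the highest of its day, and it still lay below every day 5 library. Kif23 (log2 1.52) and Prc1 (1.42), which build the central spindle, Aurkb (1.26), a kinase of the chromosomal passenger complex, and Kif20a (1.25) rose likewise.

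In M-CSF alone the same list went down. All 32 members fell there, with a median log2 fold change of −2.72, where 3570 of all genes (23.7%) passed, 12.2% higher and 11.5% lower. Ccnb2 went from 97.6, 94.4 and 83.9 CPM at day 3 to 3.59, 4.12 and 4.28 CPM at day 5 in M-CSF alone, and Cenpf from 128, 97.9 and 116 CPM to 7.78, 4.50 and 7.63 CPM. At day 3 these genes were thus lower with RANKL than without it, and at day 5 higher. The difference between the day changes passed the test upward for all 32, against 7.26% of all genes. In Ccnb2 it was 5.09 on the log2 scale (adjusted p = 2.31e-12), in Cenpf 5.54 (adjusted p = 4.15e-10) and in Mki67 3.80 (adjusted p = 6.71e-08).

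Promoters of mitotic genes are shown because the members moved together. The CHR element (TTTGAA), known as a site of the DREAM complex of the cell cycle, and CCAAT, known as the site of NF-Y, were searched on both strands of RefSeq promoter windows (250 bases before to 50 after the start, build GRCm38.p6). A window was found for 27 of the 32 genes. TTTGAA was in 21 of the 27 (77.8%), against 14.6% of the 10538 tested genes with a window and 20.2% of all 27025 genes with one, and CCAAT was in 21 of the 27 (77.8%), against 42.6% and 41.1%. The stretches below run 5′ to 3′ on the gene's strand, with TTTGAA and CCAAT (or ATTGG, the same letters on the other strand) in capitals. They are chr9:70421543-70421654 on the minus strand for Ccnb2, chr1:189688075-189688186 on the minus strand for Cenpf, chr9:61946788-61946899 on the minus strand for Kif23 and chr7:80294351-80294462 on the plus strand for Prc1.
Ccnb2: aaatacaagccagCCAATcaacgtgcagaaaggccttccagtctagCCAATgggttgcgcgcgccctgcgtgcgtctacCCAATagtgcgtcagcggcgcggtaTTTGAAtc
Cenpf: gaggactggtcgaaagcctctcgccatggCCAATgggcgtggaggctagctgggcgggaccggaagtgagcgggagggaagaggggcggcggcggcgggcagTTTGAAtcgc
Kif23: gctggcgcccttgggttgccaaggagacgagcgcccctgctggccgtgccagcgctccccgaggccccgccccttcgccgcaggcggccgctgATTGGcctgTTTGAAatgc
Prc1: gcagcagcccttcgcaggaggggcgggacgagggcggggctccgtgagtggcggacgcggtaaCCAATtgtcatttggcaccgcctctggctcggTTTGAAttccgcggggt
In each of the 4 stretches TTTGAA lies near the annotated start, and Ccnb2 has 3 CCAAT matches before it. A match describes the letters of the window and not a bound site.

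Of 33 tested genes of G1 phase and DNA replication 16 rose and 0 fell, against 14.1% and 12.7% of all genes, with a median log2 fold change of 0.76. In 30 of the 33 the days did not overlap, and a fit on the 6 libraries alone called 29 higher. In the fit on all 24 libraries, without day 3 library 1, day 3 library 2, day 5 library 1 or day 5 library 3 the count was 8 to 10. The replication clamp gene Pcna had 104, 126 and 157 CPM at day 3 and 300, 277 and 288 CPM at day 5 (log2 1.16, adjusted p = 0.00306), and Pole, a subunit of replicative DNA polymerase, rose by 1.24. The transcription factor E2f2 rose by 1.06 and thymidine kinase, Tk1, by 0.99. In M-CSF alone 4 members rose and 4 fell, against 12.2% and 11.5% of all genes.

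In the promoters of this list TTTGAA was in 3 of the 26 members with a promoter window (11.5%), while the E2F words TTTGGCGC, TTTCCCGC, TTTGCCGC and TTTCGCGC were in 12 of the 26 (46.2%), in 1 of the 27 mitotic genes and in 4.55% of the tested genes. Among 16 cyclin-dependent kinase inhibitors and related brakes, 3 rose and 3 fell (37.5% called, against 26.8% of all genes). Only 1 fell when any library but day 3 library 3 was left out. Cdkn1a, which encodes p21, rose by 0.75 on the log2 scale, the INK4 gene Cdkn2d by 0.91 and the pocket protein gene Rbl1 by 1.00. The atypical cyclin Ccng2 fell by 1.41.

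Nuclear genes of the respiratory chain fell together and by small, even amounts. Of 25 tested members 0 rose and 23 fell, against 12.7% of all genes, and the median log2 fold change was −0.50. Leaving out 1 library left 22 to 23 called. Uqcrc1, a core subunit of complex III, had 601, 607 and 542 CPM at day 3 and 343, 368 and 408 CPM at day 5 (log2 −0.65, SE 0.11, adjusted p = 2.19e-04). Sdha of complex II had 1116, 1092 and 903 CPM and then 660, 683 and 701 CPM (log2 −0.61). Ndufv1 of complex I (log2 −0.60) and Cox5b of complex IV (−0.69) fell by like amounts, and the ATP synthase gene Atp5c1 by 0.51. In all of these the lowest day 3 library was above the highest day 5 library. The 2 members not called were Cycs, cytochrome c (log2 −0.22, adjusted p = 0.663), and Cox7a2 (−0.30, adjusted p = 0.0547).

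In M-CSF alone 0 of the 25 respiratory chain genes rose and 0 fell, with a median log2 change of 0.03. The difference between media passed the test downward for 16 of the 25, against 6.73% of all genes. For Uqcrc1 it was −0.80 (adjusted p = 0.00104), since the M-CSF values, 155 to 166 CPM at day 3 and 162 to 189 CPM at day 5, overlapped. Every M-CSF value of Uqcrc1 lay below every RANKL value. Of the 12 mitochondrially encoded genes 2 fell (16.7% called, against 26.8% of all genes), with a median of −0.24. The call of mt-Co2, at 14.5, 40 and 10.6 CPM and then 10.4, 11.9 and 12.1 CPM, was lost when any library but day 3 libraries 1 and 3 was left out, and its days overlapped.

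Glycolysis and hypoxia genes moved in both directions. Of 26 tested 10 rose and 2 fell (46.2% called, against 26.8% of all genes), with a median log2 fold change of 0.39. Slc16a3, the lactate exporter MCT4, had 36.5, 36.9 and 39.6 CPM at day 3 and 177, 160 and 150 CPM at day 5 (log2 2.11, adjusted p = 1.24e-05). Egln3, an oxygen-sensing prolyl hydroxylase, rose by 3.33 from under 0.5 CPM, P4ha1, a collagen prolyl hydroxylase, by 1.11, and the phosphofructokinase gene Pfkl by 0.86. In M-CSF alone 9 of the 26 rose and 2 fell, against 12.2% and 11.5% of all genes, with the same median of 0.39. In a list of Atf4 targets and amino acid supply 3 of 26 rose and 9 fell (46.2% called, against 26.8% of all genes), with a median of −0.53. Without day 3 library 2, day 5 library 1 or day 5 library 2 the number that fell was 4 to 5. Chac1, a glutathione-degrading enzyme, had 2.19, 6.14 and 13 CPM at day 3 and 0.14, 0.612 and 0.817 CPM at day 5 (log2 −3.75). Its day 3 values spread widely, but the days did not overlap. Eif4ebp1, a translation repressor, fell by 0.82 and the glutamine transporter Slc1a5 by 0.66, whereas the stress factor Atf3 rose by 1.39. Slc7a11, another member that rose, is given with the antioxidant genes below.

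Most antioxidant genes of the Nrf2 pathway rose. Nrf2 is a transcription factor that is released when cells meet oxidants and binds antioxidant response elements together with small Maf proteins. Of 18 tested members 13 rose and 0 fell, against 14.1% and 12.7% of all genes, with a median log2 fold change of 0.76, and 11 to 13 rose when 1 library was left out. Nqo1, a quinone reductase, had 7.51, 5.42 and 6.09 CPM at day 3 and 46.6, 36.2 and 41 CPM at day 5 (log2 2.70, SE 0.22, adjusted p = 9.69e-08). Prdx1, a peroxiredoxin, had 589, 585 and 569 CPM and then 1342, 1251 and 1362 CPM (log2 1.18, adjusted p = 2.9e-07). Gclm, which helps make glutathione, had 137, 113 and 122 CPM and then 274, 251 and 245 CPM (log2 1.05). The days did not overlap in any of these. Haem oxygenase, Hmox1, rose by 1.21, the ferritin chains Fth1 and Ftl1 by 0.87 and 0.84, and sulfiredoxin, Srxn1, by 1.21. The cystine transporter Slc7a11, which stands in the Atf4 list and not among the 18, rose by 1.28. Sod1, Sod2, Gpx1, Gpx4 and Gsr did not pass the test.

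In M-CSF alone 3 of the 18 rose and 2 fell, against 12.2% and 11.5% of all genes, with a median of 0.06. Nqo1 there was at 20.5, 16.7 and 15.5 CPM at day 3 and 16.2, 16.3 and 18.9 CPM at day 5 (log2 −0.04), so that it was lower with RANKL than without it at day 3 and higher at day 5. The difference between media was 2.74 for Nqo1 (adjusted p = 1.62e-06), and it passed the test upward for 9 of the 18, against 7.26% of all genes. The core letters of the antioxidant response element (TGACNNNGC, both strands) were in 7 of the 15 members with a promoter window (46.7%), against 17% of tested genes and 14% of all genes with a window. Gclm and Prdx1 are shown for their match, in capitals. They are chr3:122245387-122245486 and chr4:116685429-116685528, both on the plus strand and both as the RefSeq tables of GRCm38.p6 give them.
Gclm: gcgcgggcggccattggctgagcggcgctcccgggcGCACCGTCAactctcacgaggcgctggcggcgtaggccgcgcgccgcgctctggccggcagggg
Prdx1: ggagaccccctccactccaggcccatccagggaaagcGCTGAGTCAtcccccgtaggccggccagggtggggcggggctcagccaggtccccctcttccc
In both genes the match reads on the other strand, and in Prdx1 it contains an AP-1 word (TGANTCA), which 6.49% of tested genes hold.

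**Figure D3:**
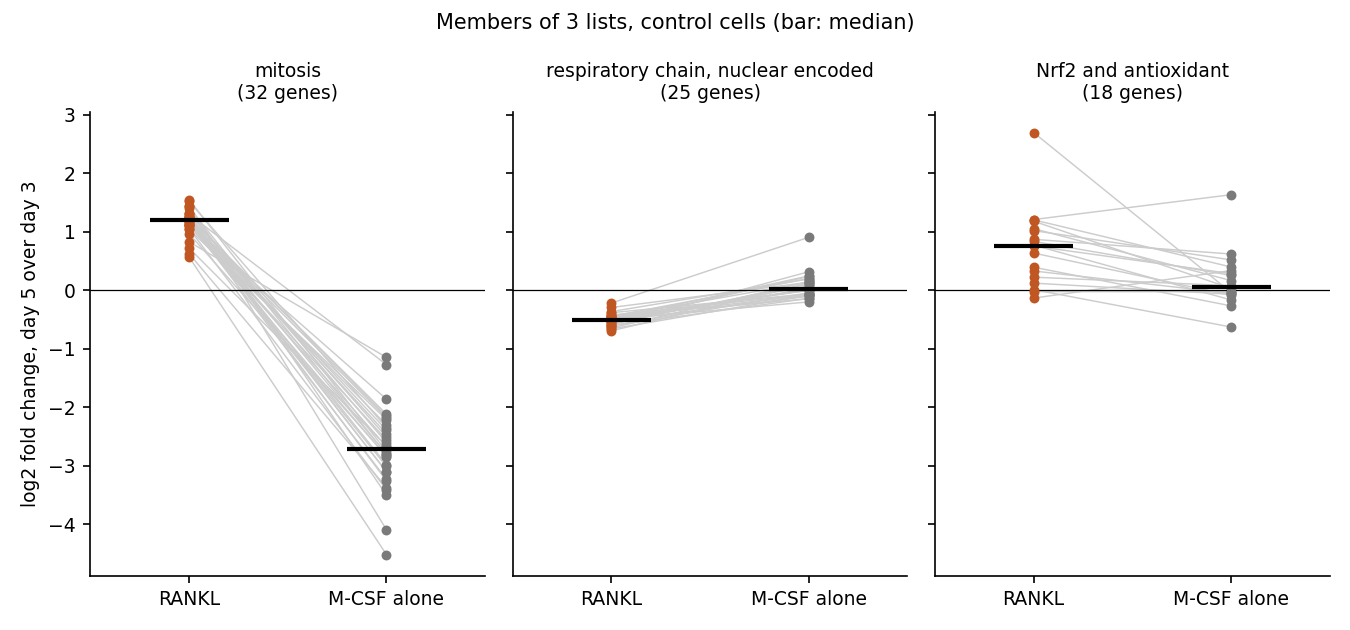
Log2 fold change from day 3 to day 5 (y axis) of each tested member of the mitosis list (32 genes), the nuclear respiratory chain list (25) and the Nrf2 list (18), with RANKL and in M-CSF alone (x axis). Points are genes, grey lines join the 2 values of a gene and bars are medians, which are 1.20 and −2.72, −0.50 and 0.03, and 0.76 and 0.06.

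Some genes of iron handling and the lysosome rose. Of 15 iron genes 6 rose and 2 fell (53.3% called, against 26.8% of all genes), and 1 fell without day 3 library 1 or day 5 library 3. Among these rises, Fth1, Ftl1 and Hmox1 were already counted in the Nrf2 list. Tfrc, the transferrin receptor, had 685, 1122 and 1172 CPM at day 3 and 2935, 2941 and 2456 CPM at day 5 (log2 1.48, adjusted p = 0.00868), a call lost without day 3 library 1. Slc11a1, a metal transporter of the phagosome, rose by 1.45. Of 28 lysosomal hydrolases and membrane proteins 8 rose and 1 fell (32.1% called, against 26.8% of all genes). Their median was 0.12, and 0 to 1 fell when a library was left out. Ctsl, cathepsin L, had 439, 447 and 480 CPM and then 1626, 1596 and 1625 CPM (log2 1.83, adjusted p = 6.52e-09), with almost no spread within either day. Cathepsin S, Ctss, rose by 1.12, the acid lipase Lipa by 0.92 and the membrane protein Lamp1 by 0.84.

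Of 20 tested genes that carry out resorption 0 rose and 4 fell (20% called, against 26.8% of all genes called and 12.7% lower), and the median log2 fold change was −0.27. A fit on the 6 libraries alone called 7 lower. Ctsk, cathepsin K, the main collagen-degrading protease of osteoclasts, had 10810, 11650 and 8232 CPM at day 3 and 11920, 11940 and 11360 CPM at day 5. The days lay close together, and the log2 change of 0.20 did not pass the test (adjusted p = 0.472). Acp5, tartrate-resistant acid phosphatase, had 8668, 7956 and 5547 CPM and then 8278, 7851 and 7637 CPM (log2 0.10, adjusted p = 0.75). Mmp9 had 26360, 25870 and 19000 CPM and then 20160, 20080 and 18720 CPM (log2 −0.27, adjusted p = 0.327). In all 3 genes the days overlapped, and day 3 library 3 was the lowest of its day. In M-CSF alone these genes were far lower, Ctsk at 1.80 to 5.92 CPM, Acp5 at 4.39 to 10.4 CPM and Mmp9 at 7.23 to 26.8 CPM. There Ctsk and Acp5 fell by 1.06 and 0.84 between the days and Mmp9 rose by 1.4. The 4 that fell were Atp6v0d2, Car2, Clcn7 and Snx10, and each lost its call in 3 or more of the 6 fits that left a library out. Without day 3 library 2 or day 5 library 1 the count was 0, without day 3 library 1 or day 5 library 2 it was 1, and without day 5 library 3 it was 2. Atp6v0d2, a subunit of the proton pump that is also needed for fusion, had 1882, 1956 and 1605 CPM and then 1007, 1086 and 1163 CPM (log2 −0.74, adjusted p = 0.0319).

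Among the V-ATPase subunits, which acidify the space under the cell, 0 of 17 rose and 7 fell, against 14.1% and 12.7% of all genes, with a median of −0.30. Leaving out day 3 library 3 gave 9, and leaving out any other gave 2 (without day 5 library 1) to 4. Atp6v1d had 655, 670 and 529 CPM at day 3 and 345, 358 and 392 CPM at day 5 (log2 −0.76, adjusted p = 5.68e-04). Atp6v1a fell by 0.51, Atp6v1b2 by 0.44 and Atp6v0e by 0.41. The calls of the last pair were lost without day 5 library 1, and that of Atp6v0e also without day 3 library 2.

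**Figure D4:**
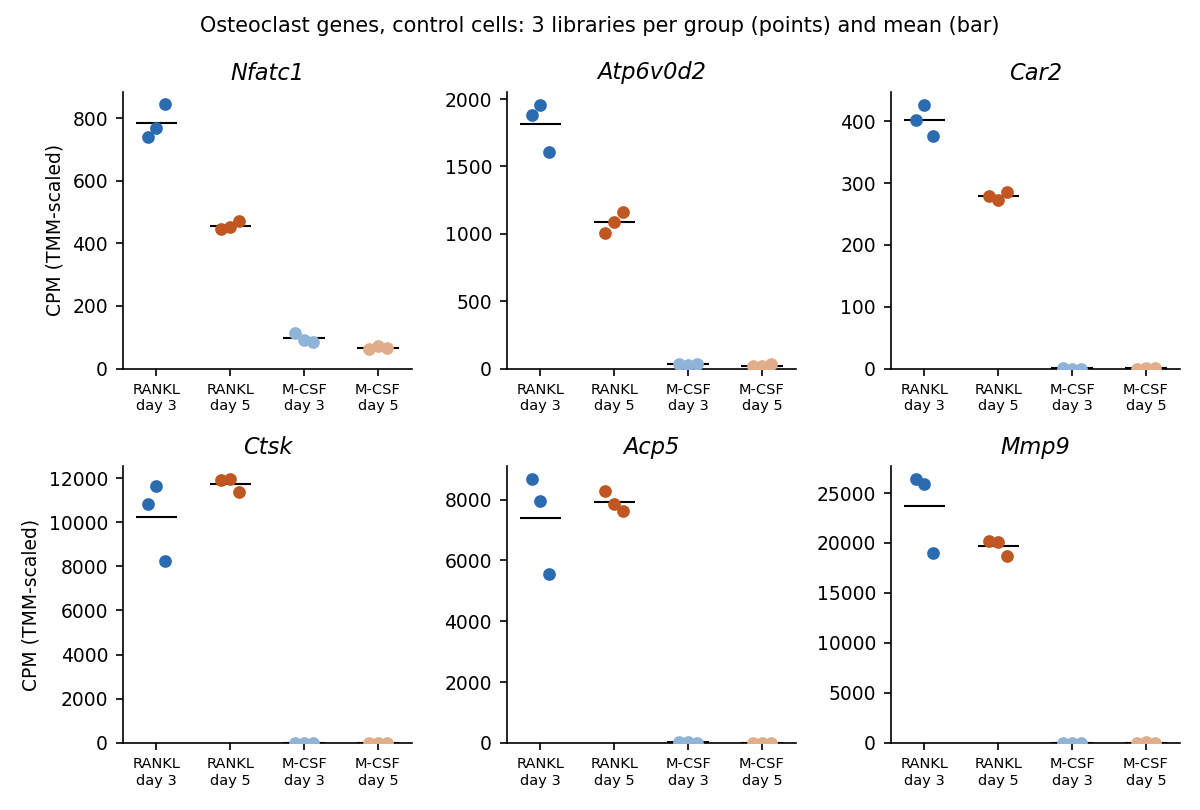
CPM (y axes) of Nfatc1, Atp6v0d2, Car2, Ctsk, Acp5 and Mmp9 in each control library, with RANKL at days 3 and 5 and in M-CSF alone at days 3 and 5 (x axis). Points are libraries and bars are group means; with RANKL, Nfatc1, Atp6v0d2 and Car2 are lower in every day 5 library, and Ctsk, Acp5 and Mmp9 overlap between days.

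The transcription factors of osteoclast formation fell more often than they rose. Of 27 tested 2 rose and 10 fell, against 14.1% and 12.7% of all genes, with a median log2 fold change of −0.38, and without day 3 library 1 the number that fell was 6. Nfatc1, the factor that RANKL induces, had 740, 768 and 845 CPM at day 3 and 445, 453 and 473 CPM at day 5, with no overlap (log2 −0.78, SE 0.15, adjusted p = 6.47e-04). Ppargc1b, a coactivator of mitochondrial genes, fell by 0.82, and the AP-1 family genes Fosl2 and Jdp2 fell by 0.87 and 0.79. The AP-1 family went in both directions, since Fosl1 rose, as given above. Fos and Jun were not called, since the 2 that rose were Fosl1 and Hif1a. In raw counts, not scaled for library size, Fos had 2187, 2422 and 3886 at day 3 and 6466, 6783 and 6127 at day 5. Jun had 1930, 2271 and 2776 and then 3786, 3595 and 3630. Junb had 9925, 6490 and 6105 and then 5682, 5750 and 5901. Hif1a, the hypoxia factor, rose by 0.68. In M-CSF alone 8 of the 27 rose and 4 fell, against 12.2% and 11.5% of all genes.

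Upstream of these factors, 1 of 22 genes of RANK signalling and its ITAM costimulation rose and 4 fell (22.7% called, against 26.8% of all genes), with a median of −0.08, and 2 fell when any library but day 3 library 3 was left out. Tnfrsf11a, which encodes RANK, had 290 to 350 CPM at day 3 and 306 to 314 CPM at day 5 (log2 −0.08, adjusted p = 0.817). Trem2, a DAP12-coupled receptor, was at 89.4, 56.6 and 60.1 CPM and then at 203, 184 and 202 CPM, a rise of 1.52 (adjusted p = 8.17e-06). The adaptor Traf6 fell by 0.43 and its partner Tab2 by 0.43, and the fall of the kinase Syk (log2 −0.40) lost its call in 5 of the 6 fits that left a library out. Of 21 inhibitors of osteoclast formation 6 rose and 2 fell (38.1% called). The calcineurin inhibitor Rcan1 rose by 1.12 and the repressor Bcl6 by 1.15, and the deubiquitinase Cyld fell by 0.53.

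Genes of fusion and of the actin ring changed in both directions. Of 17 fusion genes 6 rose and 3 fell (52.9% called, against 26.8% of all genes), with a median of 0.26. Leaving out any 1 library left 2 to 3 that rose, while scaling by DESeq2's size factors gave 3 higher and 5 lower. Adam8, a surface metalloprotease, had 290, 319 and 457 CPM at day 3 and 1200, 1130 and 1141 CPM at day 5 (log2 1.70, adjusted p = 3.49e-04). Sirpa, the receptor of CD47, fell by 0.70 and the kinase gene Dyrk2 by 1.29. Dcstamp and Ocstamp, the membrane proteins without which precursors do not fuse, were not called (log2 0.15 with adjusted p = 0.64, and −0.60 with adjusted p = 0.0635). Of 28 genes of the actin ring and podosome 2 rose and 8 fell (35.7% called), with a median of −0.13. With 1 library left out 0 to 1 rose and 7 to 8 fell. Dock5, a Rac activator, had 741, 788 and 724 CPM and then 460, 493 and 447 CPM (log2 −0.69). The GTPase Rac2 fell by 0.67, paxillin, Pxn, by 0.58, the integrin activator Fermt3 by 0.45 and the kinase Src by 0.89.

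Among 20 secreted factors of osteoclasts that act on osteoblasts and vessels, 4 rose and 1 fell (25% called, against 26.8% of all genes). Igf1, an insulin-like growth factor, had 81.7, 51.7 and 46 CPM at day 3 and 148, 130 and 144 CPM at day 5 (log2 1.23, adjusted p = 0.00238). Pdgfa rose by 1.07 and Vegfc by 1.18, and hepatocyte growth factor, Hgf, fell by 1.07, a call lost without day 3 library 1 or day 5 library 3.

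Lipid genes moved in both directions. Of 27 genes of fatty acid synthesis and desaturation 2 rose and 8 fell (37% called, against 26.8% of all genes), although the median was −0.02. Only 1 rose when any library was left out. Beside Scd2 and Scd1, the phosphatidate phosphatase Lpin1 had 57.8, 55.2 and 35.9 CPM at day 3 and 14.4, 14.4 and 14.5 CPM at day 5 (log2 −1.78, adjusted p = 1.58e-04), and the acyltransferase Lpcat3 fell by 0.56. Fatty acid synthase, Fasn, was not called (log2 0.63, adjusted p = 0.289). Of 24 cholesterol synthesis genes 1 rose and 4 fell (20.8% called, against 26.8% of all genes). Without day 3 library 2 or day 5 library 1 the number that fell was 2. Those that fell included Insig1, a sterol sensor, with 156, 166 and 125 CPM and then 55, 60.7 and 53.5 CPM (log2 −1.4, adjusted p = 0.00304), and the regulator Srebf2 (log2 −0.63). The LXR and lipid efflux list had 7 of 19 higher and 5 lower (63.2% called, against 26.8% of all genes), and 3 lower without day 3 library 1 or day 5 library 1. The exporter Abca1 fell by 1.88 along with Abcg1, both known LXR targets like Scd1 and Scd2, while apolipoprotein Apoe, also an LXR target, rose. Apoe had 422, 317 and 228 CPM and then 1670, 1327 and 1356 CPM (log2 2.17, adjusted p = 4.42e-04). The fatty acid receptor Cd36 had 128, 113 and 135 CPM and then 402, 415 and 454 CPM (log2 1.76), Pparg, a lipid-sensing nuclear receptor, had 4.18, 2.63 and 3.35 CPM and then 16.4, 19.6 and 14.9 CPM (log2 2.32), and the lipid droplet protein Plin2 rose by 0.95. In M-CSF alone 6 of the 19 rose and 6 fell, against 12.2% and 11.5% of all genes.

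Apoptosis and survival genes mostly fell where they changed. Of 23 tested 1 rose and 7 fell (34.8% called, against 26.8% of all genes), with a median of −0.23. Without day 3 library 1 the number that fell was 3. The BH3-only genes Bmf, with 84.4, 58.5 and 41.1 CPM at day 3 and 15.7, 14.2 and 14.7 CPM at day 5 (log2 −2.05), Bcl2l11 (log2 −1.13) and Pmaip1 (−1.07), which promote apoptosis, fell, the last pair not without day 3 library 1, and so did Birc2 (−1.09), an inhibitor of it. Bax, an effector of apoptosis, rose by 0.58.

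Some genes of the early response to signals rose. Of 24 immediate early and heat shock genes 10 rose and 0 fell, against 14.1% and 12.7% of all genes. Their median was 0.40, and 6 rose without day 3 library 2. Klf4 had 5.02, 5.42 and 6.57 CPM at day 3 and 26.4, 26.6 and 26.2 CPM at day 5 (log2 2.22, adjusted p = 8.5e-06). Egr2 rose by 2.42, the phosphatase Dusp1 by 1.99 and the chaperone Hsph1 by 1.47. Of 18 inflammatory cytokine and chemokine genes 8 rose and 1 fell (50% called, against 26.8% of all genes). Their median was 1.54, and 4 to 5 rose when any 1 library was left out. The chemokine gene Ccl3 had 3.54, 2.74 and 2.44 CPM and then 10.4, 10 and 8.53 CPM (log2 1.72). Ptgs2, the inducible cyclooxygenase, rose by 3.19 from under 0.5 CPM, and Ccl22 fell by 2.33. In M-CSF alone 14 of the 24 and 8 of the 18 rose, against 12.2% of all genes.

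Of 29 interferon-stimulated genes 8 rose and 0 fell (27.6% called, against 26.8% of all genes), with a median of 0.88. The number that rose was 4 to 5 without day 3 library 1, 2 or 3 or without day 5 library 3. In LysM-Cre cells with RANKL the median was 0.19. Oas3, an antiviral sensor of a family with close copies, had 12.6, 7.02 and 5.56 CPM at day 3 and 30.6, 30.4 and 77.6 CPM at day 5 (log2 2.45, adjusted p = 9.16e-04). Day 5 library 3 was the highest, as it also was for Oas2 (log2 1.67). In raw counts it was the highest of its day in every tested member of the list. Irf7, for example, had 211, 209 and 648 raw counts at day 5, and Oasl2 had 155, 198 and 701. The restriction factor Bst2 rose by 1.08.

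Markers of other cells that such cultures can hold were low, and some moved with the days. The stromal, osteoblast and smooth muscle list had 3 of 19 tested members higher and 0 lower (15.8% called, against 26.8% of all genes), with a median of 1.81. In a fit on the 6 libraries alone 11 were higher, and in 11 of the 19 the days did not overlap (49.8% of all genes). Its summed level went from 26.8 to 65.9 CPM at day 3 to 82.8 to 214 CPM at day 5. No member had 0 counts in all 6 libraries, but some had 0 in single libraries, such as Col3a1 in day 3 library 3. Fn1, fibronectin, had 8.78, 14.6 and 3.07 CPM and then 41.5, 52.9 and 18.8 CPM (log2 2.11, adjusted p = 0.0362), and Acta2, smooth muscle actin, had 1.52, 2.68 and 1.25 CPM and then 15, 19.5 and 6.26 CPM (log2 2.91, adjusted p = 0.0106). Library 3 was the lowest of both days in both genes, as in Ctgf. Without day 3 library 1 the count was 0 and without day 5 library 2 it was 1, and Fn1 lost its call in 4 of the 6 fits that left a library out. In M-CSF alone the stromal list had 10 of the 19 higher and 1 lower, with a median of 2.71, against 12.2% and 11.5% of all genes. In LysM-Cre cells with RANKL 14 were higher and 0 lower, with a median of 3.44, against 17.6% and 15.6% of all genes. The part of stromal cells in the rise of Ctgf was not tested. Neutrophil granule genes had 2 of 14 higher (0 without day 3 library 3 or day 5 library 3) and 4 lower. In all 42.9% were called, against 26.8% of all genes, and the sums were 72.5 to 106 and 96.9 to 124 CPM. Mpo (2.49, 5.94 and 3.79 CPM, then 0.373, 0.329 and 0.318 CPM) and Elane, both of early neutrophil granules, and Fcnb, a ficolin, fell.

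Monocyte genes had 1 of 13 higher and 0 lower (7.69% called, against 26.8% of all genes). The count was 0 higher without day 3 library 2 or day 5 library 3 and 2 higher without day 5 library 1. Of 17 dendritic cell and MHC class II genes 2 rose and 5 fell (2 to 3 when any library but day 3 library 3 was left out). In all 41.2% were called, against 26.8% of all genes. Their summed levels were 128 to 202 CPM at day 3 and 195 to 249 CPM at day 5. Lymphoid genes had 4 tested members, of which Il7r rose, from 9.32, 7.79 and 12.4 CPM to 55.3, 49.4 and 50.8 CPM (log2 2.40), and Ighm fell (log2 −2.94). Cd3e, Cd3g, Cd8a, Ms4a1 and Pax5 were at 0 counts, but other members were not. Summed over the libraries of a day, Cd4 had 197 counts at day 3 and 89 at day 5, Cd79a 16 and 11, and Cd79b 26 and 15. The erythroid and megakaryocyte list had 5 tested, with Pf4 higher (log2 1.27) and Hbb-bt and Car1 at 0. The mast cell list had 3 tested, with Cpa3, Mcpt4, Tpsb2 and Ms4a2 at 0. Kit, which stands in both the mast cell and the progenitor list, fell (log2 −1.65), a call lost in 4 of the 6 fits that left a library out. Of the 11 progenitor genes Ly6a rose (log2 2.63). Macrophage genes had 4 of 22 higher and 2 lower (27.3% called, against 26.8% of all genes). The count was 2 higher when any library but day 3 library 1 was left out. It was 0 to 1 lower when any but day 3 library 3 was left out. The sums were 5880 to 9656 CPM at day 3 and 9228 to 10180 CPM at day 5. Cd14, the lipopolysaccharide co-receptor, had 52.5, 33.5 and 33 CPM and then 126, 128 and 139 CPM (log2 1.72), and the transcription factor Maf fell by 0.81. The call of Adgre1, which encodes F4/80 (log2 0.80), was lost in 5 of the 6 fits that left a library out.

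**Figure D5:**
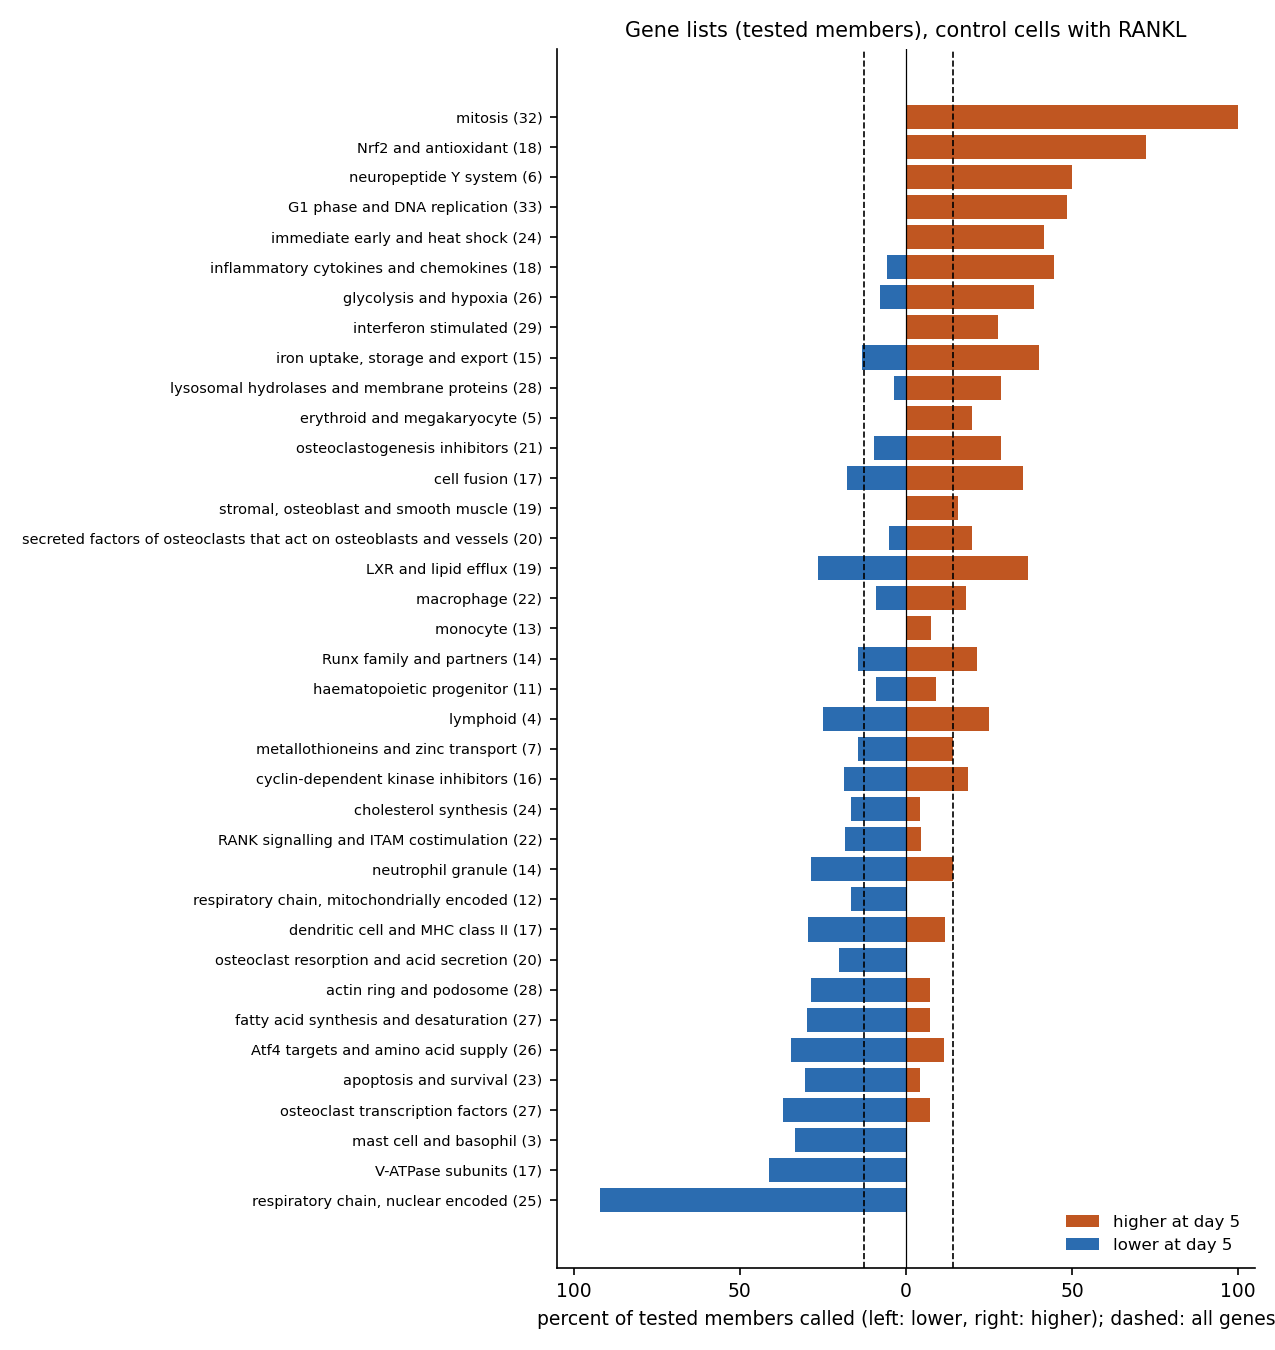
Percent of tested members of each gene list that were called lower (left) and higher (right) from day 3 to day 5 in the 6 control RANKL libraries. Dashed lines mark the share over all genes, 12.7% lower and 14.1% higher; mitosis reaches 100% higher and the nuclear respiratory chain 92% lower.

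Runx1 itself, the gene of the transgene, had 52.4, 50.6 and 51.6 CPM at day 3 and 71.5, 66.7 and 67.5 CPM at day 5 in these control cells. The days did not overlap, but the call (log2 0.41, SE 0.14, adjusted p = 0.0302) was lost in all 6 fits that left a library out and with DESeq2's size factors (0.36, adjusted p = 0.0615). Its partner Cbfb had 89.8, 93.3 and 116 CPM and then 166, 160 and 159 CPM (log2 0.69, adjusted p = 0.00286). The locus transcript Gt(ROSA)26Sor (log2 0.37, adjusted p = 0.105) and Lyz2 (0.68, adjusted p = 0.0907), which carries Cre in the other genotype, were not called.

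Across all genes, the day change with RANKL differed from that in M-CSF alone for 2103 of 15035 genes (14%), 1091 of them in the direction of a higher change with RANKL (7.26%) and 1012 lower (6.73%). With library totals alone as scaling the share in the higher direction was 67.2% of 2088 calls, against 51.9%. Beside the mitotic genes Aspm (5.30 on the log2 scale), Cdkn3 (4.97), Pif1 (5.19) and Sapcd2 (5.41), the upward differences included Serpinb9b (4.80), which stayed between 0.648 and 1.77 CPM in M-CSF alone. Downward differences were led by Lox, which crosslinks collagen. Lox had 85.1, 67.6 and 52.1 CPM and then 18.1, 21.4 and 18.7 CPM with RANKL, and 0.513, 1.03 and 0.202 CPM and then 10.3, 8.67 and 0.979 CPM in M-CSF alone, where library 3 of day 5 remained low.

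The day change with RANKL was also compared with that of LysM-Cre;Rosa26-Runx1tg cells. In those cells 4995 genes (33.2%) changed between the days, 17.6% of all genes higher and 15.6% lower. The difference between the genotypes' day changes passed the test for 0 of 15035 genes in edgeR, with 225 (1.5%) at an unadjusted p under 0.05, and for 0 in DESeq2. A p that misses the threshold does not show that the genotypes changed alike. In LysM-Cre cells all 32 mitotic genes rose (median 1.28), 24 of 25 nuclear respiratory chain genes fell (median −0.53) and 14 of 18 Nrf2 genes rose (median 0.71).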

How the data were processed

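The authors deposited raw read counts for every gene and library in a single table. STAR, DESeq2 and GRCm39 stand in the submitters' processing notes; versions, counting tool and strand setting: not given in the sources used here. Of 54532 identifiers 54495 were found in GENCODE M21 (GRCm38), 53585 (98.3%) at the same position, so coordinates are given on that build. Titles matched all value columns to libraries (0 left over).

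Counts of all 24 libraries (8 groups) were tested in R 4.3.3 with edgeR 4.0.16 (quasi-likelihood, TMM scaling, filterByExpr, 15035 genes kept, 27.6%), at a Benjamini-Hochberg adjusted p under 0.05. SE is the size of the log2 fold change divided by the root of its F statistic. CPM are counts per 1e6 of the TMM-scaled library size. The scripts were tested on simulated data. Alternatives were DESeq2 1.42.0, other scalings, filters, sets of libraries, a block for the replicate number and leaving out each library.

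Members and the 37 gene lists (739 symbols, all in the table) were chosen with earlier results of these data known, so list counts are descriptions. Named were the 12 largest rises and falls with a mean log2 CPM of at least 1, no overlap between days and a symbol other than a predicted gene's, the 6 largest differences between media in each direction, up to 4 members of each list by p, and a fixed set of osteoclast, transgene and marker genes. Abca1, Anln, Apoe, Bcl2l11, Cox5b, Cox7a2, Cycs, Fosl2, Gpx1, Gpx4, Gsr, Jdp2, Slc7a11, Sod1, Sod2, Src, Srxn1, Tfrc and Tnfrsf11a were added once values had been seen. Fos, Jun and Junb, given only as raw counts, also stand outside this rule. A few genes that the rule names are not reported here. Families of near-identical copies (Scd, Oas, Serpinb9, ferritin) and genes that overlap a neighbour or have an antisense partner are uncertain, since counting could split or merge their reads.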

Additional observations from a re-analysis of the deposited data

Results flagged for a closer look

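In these genes the change from day 3 to day 5 differed between the media in control cells, by a test of the difference itself (edgeR, adjusted p under 0.05). Each value is the log2 change with RANKL minus that in M-CSF alone. It was 5.09 for Ccnb2, 3.80 for Mki67, 4.97 for Cdkn3, 5.30 for Aspm, 5.54 for Cenpf, 5.19 for Pif1 and 5.41 for Sapcd2, all genes of dividing cells. It was 2.44 for Npy, 2.74 for Nqo1, 3.12 for Mmp12, 4.80 for Serpinb9b and 0.89 for Ctsl. It was −0.80 for Uqcrc1 and −2.28 for Efna2. For Scd1 it was 2.14 (adjusted p = 0.0223), since Scd1 fell further in M-CSF alone, and this call was lost in 4 of the 12 fits that left a library out.

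Of the 3 resorption markers, Ctsk had 1.26 (adjusted p = 0.0114), Acp5 0.94 (adjusted p = 0.0444) and Mmp9 −1.68 (adjusted p = 4.64e-04), at M-CSF levels under 30 CPM. The Ctsk call was lost without day 3 library 1 in M-CSF alone, and the Acp5 call in 9 of the 12 fits that left a library out.

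It was −5.36 for Lox, −4.26 for Col5a3 (adjusted p = 0.027), −4.21 for Fstl1, −4.57 for Flnc, −5.25 for Scin and −5.12 for Htr1b (adjusted p = 0.0351). In M-CSF alone at day 3, Scin and Htr1b had 0 counts in all 3 libraries, so their fitted values depend on the prior count and are no bound. The calls of Col5a3 and Htr1b were lost in 7 of the 12 fits that left a library out, that of Scin in 5, and that of Fstl1 without day 5 library 2 in M-CSF alone. For Lox, Col5a3, Fstl1 and Flnc, day 5 library 3 in M-CSF alone was the lowest of its group. The stromal list also rose in M-CSF alone, with a median of 2.71, and the part of stromal cells in these differences was not tested.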

How the results depend on the processing

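The day comparison (2114 higher, 1913 lower) and the difference between media (1091 and 1012) stayed within 1.5 times under the other scalings, the stricter filter, DESeq2 and the smaller sets of libraries. Without a filter (29368 genes tested) the lower calls were 1206 and 589. With 1 library left out, the day comparison gave 1278 to 2160 higher and 1154 to 1872 lower, and the difference between media 785 to 1042 and 698 to 1052. The difference between genotypes was 0 throughout. No named gene reversed. Without a filter 21 named genes lost their call.

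Fits on the 6 libraries alone called 29 of the G1 and replication genes against 16, 11 of the stromal genes against 3 and 7 of the resorption genes lower against 4. The numbers were not taken as a pairing because no label says what they mark. Same-numbered libraries of the 2 days shared little of their deviation. Their r were 0.008, 0.08 and 0.032, against at most 0.021 for different numbers, and 2 of 3 correlated best with their own number. Across media the r were 0.324, 0.098 and 0.31 at day 3 (3 of 3 best with their own number) and 0.042, 0.113 and 0.186 at day 5, so same-numbered libraries of the 2 media did share part of their deviation. With the replicate number as a block, 2399 genes were higher and 2019 lower (2597 and 2349 in the 6 libraries alone), and the difference between media gave 1183 and 1127. The differences between media of Acp5 (0.94, adjusted p = 0.0621) and Htr1b (−5.12, adjusted p = 0.0569) were not called with the block, nor were the day changes of Fn1 (adjusted p = 0.0508) and mt-Co2 (adjusted p = 0.0598), while those of Cox7a2, Lyz2 and Ocstamp were. Depth limits genes under about 1 CPM, such as Fosl1 at day 3.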
